A study of Homo sapiens with 6 samples.

Results

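H19 and IGF2 are neighbouring imprinted genes on chromosome 11, and both had more RNA in gefitinib-resistant PC9-GR cells than in parental PC9 cells. They were taken by gene symbol from a deposited table of 1705 genes, where 1 row is labelled H19 and 1 is labelled IGF2. PC9 is a human lung adenocarcinoma line with an EGFR exon 19 deletion, and PC9-GR, which is labelled with the same deletion, was derived from it by raising gefitinib, an EGFR kinase inhibitor, in steps from 0.5 to 10 µM. PC9-GR was kept at 10 µM and grown without the drug for 7 days before RNA was taken, while PC9 is labelled only as the parental line. RNA was sequenced from 3 independent cultures of each line. The labels do not say whether PC9-GR is a clone or a pool, and it is 1 derived line, so differences between cultures do not cover differences between independent derivations. The table gives FPKM, a level scaled by transcript length and by the size of the library, without counts, so sequencing depth is unknown.

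An imprinted gene is read mainly from the chromosome of 1 parent. At the H19 and IGF2 locus the insulator protein CTCF binds a control region on the maternal chromosome, where H19 is read, and keeps shared enhancers away from IGF2, which is read from the paternal chromosome. H19 gives a long non-coding RNA that is also the precursor of miR-675. IGF2 encodes insulin-like growth factor 2, a secreted ligand of the IGF1 receptor and the insulin receptor that is abundant before birth. FPKM sums the RNA of both parental alleles, so allelic origin was not measured.

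The H19 transcript is shown here through the small RNA it carries, since that is the part of it with a defined product. In GENCODE 29 the miR-675 hairpin (GRCh38, chr11:1996759-1996831, minus strand) lies within an exon of 4 of 12 H19 transcripts. RefSeq (GRCh38.p14) gives the hairpin with both mature arms in capitals, and each mature arm with its seed, bases 2 to 8, in capitals.
MIR675 hairpin: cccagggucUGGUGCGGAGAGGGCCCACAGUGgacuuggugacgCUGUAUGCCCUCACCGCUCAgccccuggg
miR-675-5p: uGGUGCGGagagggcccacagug
miR-675-3p: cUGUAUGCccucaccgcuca
The arms have different seeds, so they do not belong to 1 seed family. IGF2 hosts miR-483, whose hairpin (GRCh38, chr11:2134134-2134209) is spanned by 8 of 8 IGF2 transcripts and is in an exon of 0 of them, that is, it is intronic. Neither microRNA was measured in these libraries, and the values below are for the host genes.

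H19 (ENSG00000130600) measured 23.9, 23.7 and 17.6 FPKM in the PC9-GR libraries, against 2.05, 1.16 and 0.911 FPKM in the PC9 libraries. The groups did not overlap, and the lowest PC9-GR library was 8.57 times the highest PC9 library. The mean was 21.7 ± 3.57 FPKM in PC9-GR and 1.38 ± 0.600 FPKM in PC9 (SD, n = 3 each), a ratio of 15.8. On the scale log2(FPKM + 1) the difference was 3.27, the 7th largest increase among the 1705 genes. That scale understates changes of low genes. CDH13 and LINC00942, for example, had larger ratios of means (50.3 and 38.8) but smaller differences on it (3.23 and 3.16).

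IGF2 (ENSG00000167244) measured 4.45, 5.79 and 3.91 FPKM in PC9-GR, against 1.38, 1.24 and 0.843 FPKM in PC9. These groups did not overlap either, but they lay closer together, with the lowest PC9-GR library at 2.83 times the highest PC9 library. The mean was 4.72 ± 0.970 FPKM in PC9-GR and 1.16 ± 0.280 FPKM in PC9 (SD, n = 3 each), a ratio of 4.08. The difference on the scale log2(FPKM + 1) was 1.40, which ranked 174 among the 1705 genes.

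Both genes are in the table because the authors selected genes on this same contrast, and the pair was chosen with its direction known, so no test is given for them. The authors' deposited table gives a ratio of 16.3 for H19 and 3.97 for IGF2, with a q-value of 0.000285 for each. Non-overlap is also the rule in this table: 94.8% of its 1705 genes did not overlap between the groups, 48.3% of the 1705 with PC9-GR higher, as for H19 and IGF2, and 46.6% with it lower. In bulk RNA, more cells with H19 or IGF2 RNA and more RNA per cell cannot be told apart.

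**Figure D1:**
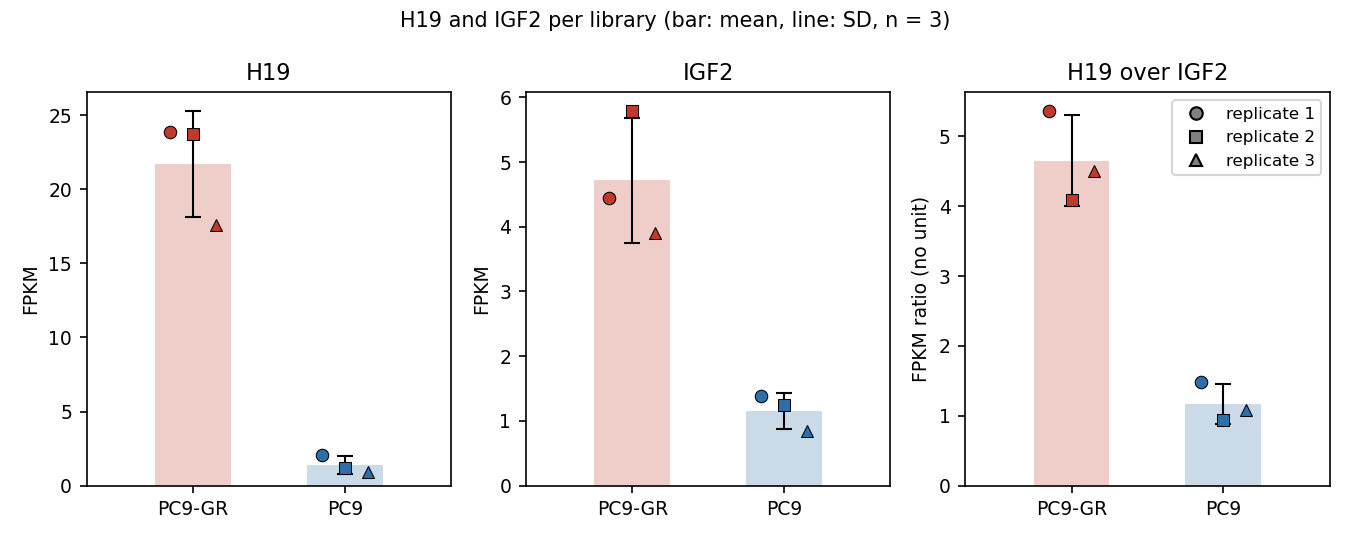
FPKM of H19, FPKM of IGF2 and the ratio of H19 to IGF2 in 3 PC9-GR and 3 PC9 libraries, with bars at the mean, lines for the SD (n = 3) and a symbol for each library. H19 reaches 17.6 to 23.9 FPKM in PC9-GR and stays at 2.05 FPKM or less in PC9, and the ratio is at least 4.09 in PC9-GR and at most 1.48 in PC9.

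The balance between the genes also differed between the lines, which follows from the differences given above and is not separate support. In PC9 the genes had near-equal levels per length, though both were near 1 FPKM, and in PC9-GR H19 was the more abundant. Reads that IGF2 can share with AC132217.4, described below, were not taken out of the ratio. The H19 to IGF2 ratio of FPKM was 5.37, 4.09 and 4.50 in PC9-GR, against 1.48, 0.938 and 1.08 in PC9. The mean ratio was 4.65 ± 0.651 in PC9-GR and 1.17 ± 0.283 in PC9 (SD, n = 3 each), and the ratios did not overlap. The mean log2 ratio was 2.21 ± 0.199 in PC9-GR and 0.20 ± 0.339 in PC9, a difference of 2.01 that scaling a whole library cannot change. By rank of mean FPKM among the 1705 genes, H19 stood at 163 in PC9-GR and at 901 in PC9. IGF2 stood at 546 in PC9-GR and at 958 in PC9. Within each line the genes shared their lowest library: replicate 3 had the least H19 and the least IGF2 in PC9-GR and also in PC9. The highest PC9-GR library was replicate 2 for IGF2, while for H19 replicates 1 and 2 were near-equal (23.9 and 23.7 FPKM).

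Both members were higher in PC9-GR under each scaling of the libraries tried, but the size of the difference moved. The libraries' FPKM sums over the listed genes were 16705 to 17114 in PC9-GR and 28346 to 30541 in PC9. When these sums were set equal, H19 averaged 29.8 FPKM in PC9-GR and 1.10 FPKM in PC9, a ratio of 27.2. IGF2 then averaged 6.47 FPKM in PC9-GR and 0.915 FPKM in PC9, a ratio of 7.08. With median-ratio scaling the ratio was 12.8 for H19 and 3.30 for IGF2. Equal sums moved the median log2 difference of the 1207 tested genes by 0.47 and median-ratio scaling moved it by -0.14. Both scalings, here and below, use only the listed genes, which were selected as changed. Neither is a normalization of the whole library, so they show only how far the values depend on scaling.

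The listed genes from H19 to OSBPL5, on the IGF2 side, had higher means in PC9-GR, and the nearest pair on the other side of H19 had lower ones. The table places H19 on chromosome 11 at 2016405 to 2022700 and IGF2 at 2150341 to 2182571, 127.6 kb away, and names no build. All 6 listed genes from H19 to OSBPL5, a stretch of 1172 kb, had a higher mean in PC9-GR. H19 and IGF2 were chosen with that direction known, and the table gives AC132217.4 the locus of IGF2, so these rows are not separate support for a pattern. The others, TH, SLC22A18AS and OSBPL5, are low and were not tested. Of the 6, 5 did not overlap between groups, against 94.8% of all 1705 genes. TH, the exception, overlapped. Over chromosome 11, 47 of 92 listed genes had a higher mean in PC9-GR. Genes of the stretch that the table does not list were not analysed here, and no test of the stretch was made.

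AC132217.4 (ENSG00000240801) has the same locus as IGF2 in the table. It measured 2.28, 2.44 and 3.13 FPKM in PC9-GR, against 0.282, 0.855 and 0.697 FPKM in PC9, and the groups did not overlap. The authors' deposited table gives AC132217.4 a q-value of 0.0836. In GENCODE 29 this identifier is a non-coding RNA on the strand of IGF2, and 2 of its 2 exons lie inside an IGF2 exon. It spans 844 bases there, so the locus the table gives it is wider than the gene. Reads from the 2 genes can be shared, so AC132217.4 is not a measurement separate from IGF2, and the IGF2 value is uncertain to that extent. The antisense gene IGF2-AS and the readthrough gene INS-IGF2 also overlap IGF2 in that annotation. The library kit keeps strand, but the strand setting used for counting is not given in the sources used here.

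TH encodes tyrosine hydroxylase, the first enzyme of catecholamine synthesis. Its locus starts 2.59 kb past the end of the locus that the table gives to IGF2. That table locus spans 32230 bases, while IGF2 spans 20492 bases in GENCODE. There the overlapping INS-IGF2 reaches further on this side, to 2161209 against 2149603 for IGF2. The 2.59 kb may therefore understate the distance from TH to IGF2 itself. The PC9-GR libraries of TH measured 1.13, 2.68 and 0.678 FPKM, against 0.654, 0.894 and 0.603 FPKM in the PC9 libraries. Replicate 2 of PC9-GR was the only library well above the rest, and the authors' deposited table gives TH a q-value of 0.0869. SLC22A18AS, the antisense partner of the imprinted transporter gene SLC22A18, measured 0.984, 0.872 and 0.873 FPKM in PC9-GR, against 0.144, 0.158 and 0.414 FPKM in PC9. OSBPL5, a lipid transfer protein gene, measured 1.25, 0.921 and 0.727 FPKM in PC9-GR, against 0.325, 0.252 and 0.151 FPKM in PC9. All 3 of these genes are low and were below the filter of at least 1 FPKM in 3 libraries, so they were not tested. Next on that side the table lists APBB1, an adaptor of the amyloid precursor protein, 3228 kb past OSBPL5, at 0.923 ± 0.277 FPKM in PC9-GR and 0.0930 ± 0.00436 FPKM in PC9 (SD, n = 3 each). It too was below the filter.

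On the other side of H19, across a gap of 153.5 kb, lie TNNI2 and SYT8. TNNI2 encodes fast skeletal muscle troponin I and SYT8 a synaptotagmin, a protein of membrane traffic. TNNI2 measured 7.57, 7.85 and 7.94 FPKM in PC9-GR, against 20.2, 25.3 and 22.9 FPKM in PC9. SYT8 measured 3.80, 3.07 and 1.97 FPKM in PC9-GR, against 8.33, 10.8 and 9.28 FPKM in PC9. Both fell, by 1.43 on the log2(FPKM + 1) scale each (limma, adjusted p = 1.89e-06 for TNNI2 and 4.58e-05 for SYT8) and with equal library sums the log2 difference was -0.69 for TNNI2 and -0.77 for SYT8. The next 3 listed genes lie across a gap of 1467 kb beyond SYT8. Of them, B4GALNT4, a glycosyltransferase gene, measured 3.97 ± 1.60 FPKM in PC9-GR and 1.75 ± 0.868 FPKM in PC9. It was called higher with overlapping groups (limma, adjusted p = 0.0148). That call was lost with median-ratio scaling (limma, adjusted p = 0.0549). ATHL1 fell by 0.98 on that scale, a call lost with equal library sums (limma, adjusted p = 0.0969), and the non-coding RP11-326C3.2 fell by 1.69, against a log2 difference of -1.04 with equal library sums. A call or a small limma p-value means little, here and in the paragraphs below, since the genes had been selected as changed on these libraries. Of the 1207 tested genes, limma called 99.7%, 48.4% as higher and 51.3% as lower in PC9-GR. With equal library sums it called 1019 of them, 586 higher and 433 lower.

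**Figure D2:**
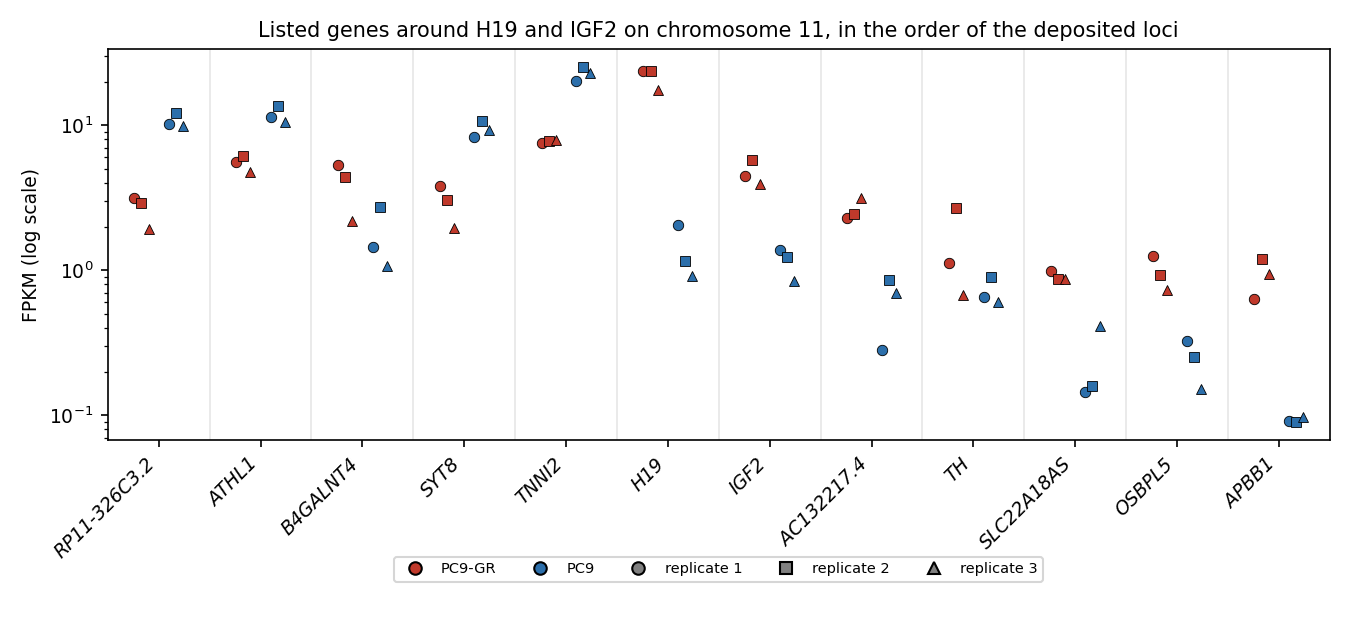
FPKM (log scale) in each PC9-GR and PC9 library for the listed genes around H19 and IGF2, left to right in the order of their loci in the deposited table. From H19 to OSBPL5 the PC9-GR libraries lie above the PC9 libraries except for overlap in TH, and for SYT8 and TNNI2 they lie below.

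Genes that bind or release IGF ligands included some called higher and some called lower in PC9-GR. Of 16 IGF binding protein and protease genes, 7 are in the table, and of the 6 tested ones 3 were called higher and 3 lower, against 48.4% higher and 51.3% lower among all tested genes, so the split is no result about the list. Their median log2 difference was -0.10, against -0.63 for all 1207 tested genes. IGFBP3, the main carrier of IGF ligands in serum, had the highest level of these genes. It measured 176.0, 188.5 and 163.6 FPKM in PC9-GR, against 467.7, 401.9 and 422.3 FPKM in PC9, and fell by 1.29 on the log2(FPKM + 1) scale (SE 0.108, limma adjusted p = 2.82e-06). Its chromosome 7 neighbour IGFBP1, another binding protein, measured 0.245 ± 0.0435 FPKM in PC9-GR and 1.60 ± 0.413 FPKM in PC9 (SD, n = 3 each) and was called lower. IGFBP5, a binding protein held in the matrix, did not pass the filter, with 0.653 ± 0.144 FPKM in PC9-GR and 0.0546 ± 0.0306 FPKM in PC9.

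PAPPA is a protease that cuts IGF binding proteins and so frees the ligand, and the stanniocalcins STC1 and STC2 inhibit it. PAPPA measured 1.44, 1.15 and 1.24 FPKM in PC9-GR, against 4.97, 4.27 and 5.83 FPKM in PC9, and fell by 1.40 on the log2(FPKM + 1) scale (SE 0.144, limma adjusted p = 9.45e-06). STC2 measured 94.8, 88.3 and 76.5 FPKM in PC9-GR, against 36.1, 36.8 and 28.8 FPKM in PC9, and rose by 1.33 (SE 0.126, limma adjusted p = 5.91e-06). STC1 measured 5.17 ± 1.16 FPKM in PC9-GR and 1.72 ± 0.402 FPKM in PC9, and HTRA1, a secreted serine protease that can cut IGF binding proteins, measured 4.17 ± 0.459 FPKM in PC9-GR and 1.90 ± 0.391 FPKM in PC9 (SD, n = 3 each). Both rose. The 6 calls of this list held under both other scalings, but with equal library sums the log2 difference was -0.49 for IGFBP3, -0.84 for PAPPA, 2.12 for STC2, 1.77 for STC1 and 1.44 for HTRA1. Of 20 further genes for IGF ligands, receptors and adaptors, such as IGF1R, INSR and IGF2R, 0 are in the table, and they were not analysed here.

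Few other imprinted genes are in the table. Of 63 imprinted genes on the list besides H19 and IGF2, 4 are in the table, and of the 3 tested ones 1 was called higher and 2 lower, against 48.4% higher and 51.3% lower among all tested genes, which makes the split no result about imprinted genes. PEG10, a retrotransposon-derived gene read from the paternal chromosome, measured 12.9, 10.3 and 12.0 FPKM in PC9-GR, against 58.0, 64.0 and 53.5 FPKM in PC9. It fell by 2.23 on the log2(FPKM + 1) scale (SE 0.116, limma adjusted p = 2.12e-07). TFPI2, a protease inhibitor gene on the same chromosome, measured 19.1 ± 2.26 FPKM in PC9-GR and 40.4 ± 10.7 FPKM in PC9 (SD, n = 3 each). It was called lower, and the call was lost with equal library sums (limma, adjusted p = 0.185). The carboxypeptidase gene CPA4 measured 17.3, 18.2 and 17.9 FPKM in PC9-GR, against 5.97, 5.74 and 6.94 FPKM in PC9, and rose by 1.39 (SE 0.111, limma adjusted p = 2.06e-06). DDC, an aromatic amino acid decarboxylase gene, did not pass the filter, with 0.481 ± 0.0554 FPKM in PC9-GR and 0.113 ± 0.109 FPKM in PC9. With equal library sums the log2 difference was -1.46 for PEG10 and 2.11 for CPA4. Of 21 genes that set or keep imprints, among them CTCF and the DNA methyltransferases, 0 are in the table, and they were not analysed here.

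**Figure D3:**
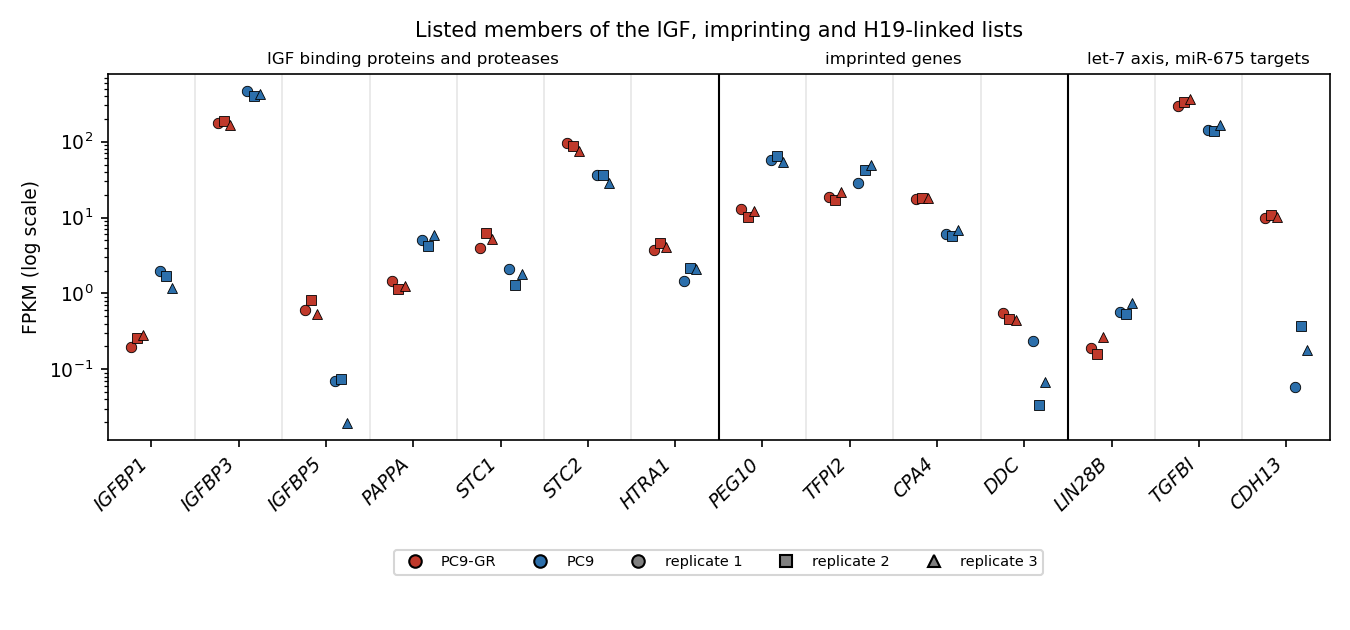
FPKM (log scale) in each PC9-GR and PC9 library for the listed IGF binding protein and protease genes, imprinted genes, and the let-7 axis and reported miR-675 target genes. IGFBP3 and PEG10 lie lower in PC9-GR, and STC2 and CPA4 lie higher.

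H19 RNA has been described as a sponge for let-7, a microRNA family that holds back growth genes, and LIN28B blocks let-7 maturation. LIN28B was the 1 of 10 let-7 axis and IGF2 RNA binding genes in the table. It was below the filter and measured 0.189, 0.157 and 0.266 FPKM in PC9-GR, against 0.571, 0.534 and 0.752 FPKM in PC9, with no overlap. RefSeq gives let-7a, with the seed in capitals, as follows.
let-7a-5p: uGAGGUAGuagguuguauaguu
The sense strand of the 12 GENCODE 29 H19 transcripts was searched for the 7-letter match to this seed, CTACCTC, and for the 6-letter match TACCTC, which lies within it. Neither was found in any of them. Of 11587 GENCODE 29 transcripts within 10% of the length of the longest H19 transcript (2348 bases), 15.8% hold CTACCTC and 35.8% hold TACCTC. The absence says only that these letters are not there.

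Of 10 genes reported as targets of miR-675, 2 are in the table, and both were called higher in PC9-GR. TGFBI, a secreted matrix protein gene, measured 299.7, 333.6 and 362.5 FPKM in PC9-GR, against 143.0, 139.8 and 166.7 FPKM in PC9, and rose by 1.14 on the log2(FPKM + 1) scale (SE 0.116, limma adjusted p = 8.61e-06). CDH13, a cadherin without a cytoplasmic tail, measured 9.73, 10.7 and 10.3 FPKM in PC9-GR, against 0.0589, 0.371 and 0.181 FPKM in PC9, and rose by 3.23 (SE 0.142, limma adjusted p = 9.83e-08). With equal library sums the log2 difference of TGFBI was 1.94. With 48.4% of tested genes called higher, 2 of 2 is no result about the list.

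The genes with profiles most like H19 were not those most like IGF2. Likeness was the Euclidean distance between log2(FPKM + 1) values over the 6 libraries, each gene centred on its own mean, and it is set largely by the size of the difference between the lines. The nearest to H19 were EDN2 (distance 0.610), the non-coding LINC00942 (distance 0.619) and DIO2 (distance 0.679). EDN2 encodes the vasoconstrictor endothelin 2 and measured 18.3, 20.1 and 17.7 FPKM in PC9-GR, against 2.36, 1.72 and 1.26 FPKM in PC9. DIO2, which encodes an enzyme that activates thyroid hormone, measured 94.7 ± 5.85 FPKM in PC9-GR and 10.4 ± 2.60 FPKM in PC9, and LINC00942 measured 10.3 ± 0.663 FPKM in PC9-GR and 0.265 ± 0.0982 FPKM in PC9 (SD, n = 3 each).

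IGF2 had closer neighbours in profile. The 3 nearest were ANXA6 (distance 0.195), a calcium-dependent membrane-binding annexin, COL6A2 (distance 0.208), a collagen VI chain, and PLD3 (distance 0.217), a lysosomal enzyme of the phospholipase D family. COL6A2 measured 79.6, 92.1 and 73.8 FPKM in PC9-GR, against 35.3, 31.8 and 29.8 FPKM in PC9, and as in IGF2 the second PC9-GR library was the highest and the third PC9 library the lowest. ANXA6 averaged 147.9 ± 16.5 FPKM in PC9-GR and 58.6 ± 7.58 FPKM in PC9, and PLD3 averaged 160.3 ± 19.2 FPKM in PC9-GR and 57.5 ± 5.07 FPKM in PC9 (SD, n = 3 each). H19 and IGF2 were 2.33 apart: IGF2 ranked 155 in nearness to H19, and H19 ranked 579 in nearness to IGF2, among the tested genes. The Pearson correlation of H19 over the libraries was 0.986 with IGF2 and 0.987 with DIO2, so these ranks reflect mainly the size of the difference.

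**Figure D4:**
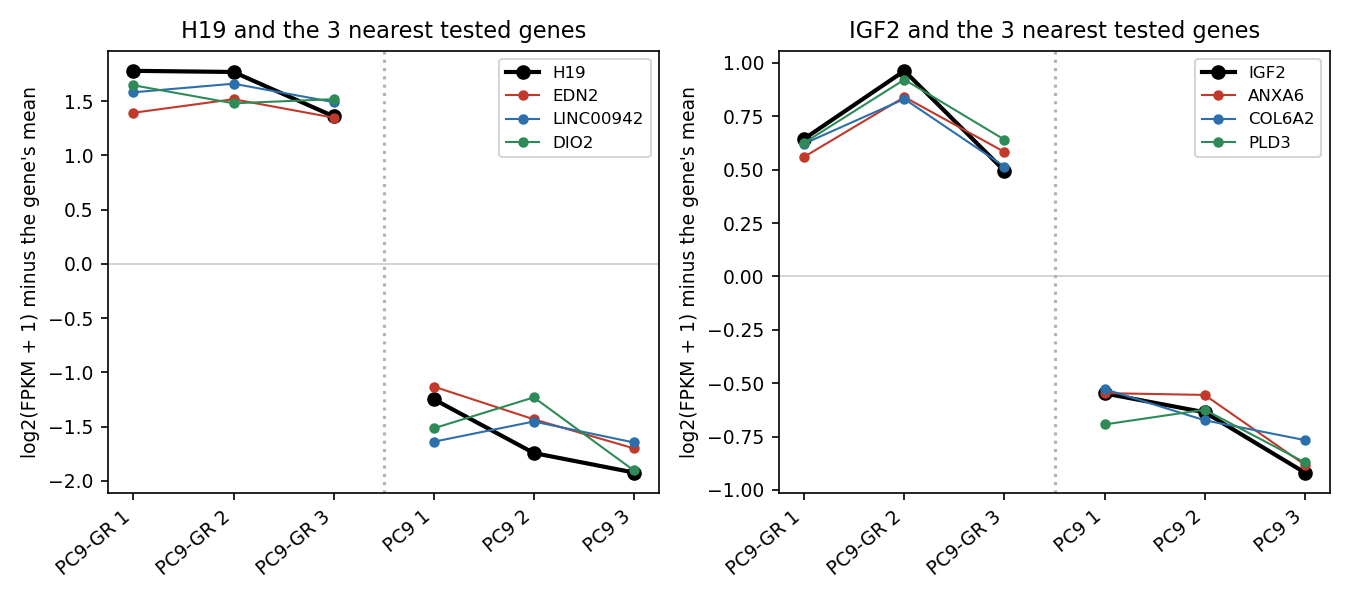
Centred log2(FPKM + 1) in the 6 libraries for H19 with EDN2, LINC00942 and DIO2, and for IGF2 with ANXA6, COL6A2 and PLD3, with lines that join the 3 libraries of a gene in each cell line. H19 and its nearest genes span a larger difference than IGF2 and its nearest genes.

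A few markers of other cell types are in the table. Of 19 fibroblast, endothelial and haematopoietic markers, 4 are in the table: PDGFRB, CD68 and ITGAM, the 3 tested ones, were called higher, as were 48.4% of all tested genes, and LYZ did not pass the filter, with 0.142 ± 0.125 FPKM in PC9-GR and 1.09 ± 0.459 FPKM in PC9 (SD, n = 3 each). PDGFRB, a growth factor receptor of fibroblasts and pericytes, measured 3.77, 3.69 and 2.38 FPKM in PC9-GR, against 0.143, 0.0749 and 0.0661 FPKM in PC9. The markers' summed level was 42.7 to 52.7 FPKM in PC9-GR and 18.6 to 21.96 FPKM in PC9. Most of that sum was CD68, a lysosomal protein used as a macrophage marker, at 39.3, 41.5 and 34.5 FPKM in PC9-GR, against 19.3, 19.03 and 17.4 FPKM in PC9. LYZ was at the floor of the table (0.001 FPKM) in PC9-GR replicate 1. The part of these markers in the difference of H19 and IGF2 was not tested. Of 13 epithelial and lung adenocarcinoma markers 0 are in the table, so the labelled cell type could not be checked against them here.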

How the data were processed

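Total RNA libraries were strand-specific, per the labels' protocols, and TopHat and Cufflinks were run, per the submitters' processing notes. For their versions, build, annotation and strand setting: not given in the sources used here. In the deposited table, per the file headers, the authors give FPKM for each library and group, their ratio on the linear and log2 scales, and a p-value and q-value. Each of its 1705 genes has an absolute authors' log2 ratio of at least 1.00 and a p-value of at most 0.0497, so it is a selection on these libraries, not a transcriptome. The limma p-values come from the same libraries as that selection and are not independent support.

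A gene was tested if 3 or more of the 6 libraries had 1 FPKM or more (1207 genes). The test was limma 3.58.1 in R 4.3.3 on log2(FPKM + 1), a scale that understates changes of low genes (variance trend, two-sided, Benjamini-Hochberg adjustment, called under 0.05). It was run on simulated data in which most genes were unchanged, unlike this table, so that check does not cover such a selection. An exact permutation test of 3 against 3 libraries cannot go below p = 0.1. H19, IGF2 and the gene lists were chosen with earlier results of these data known. Genes named are H19 and IGF2, listed members of 7 pathway lists and the marker lists, 5 listed genes on either side, and the 3 nearest profiles of each. Alternatives were another pseudocount, filter and scaling, a replicate block, no variance trend, and leaving out each library. GENCODE 29 (GRCh38) was matched by gene identifier. RefSeq sequences matched miR-675 and let-7a, while miR-483 is named only.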

Additional observations from a re-analysis of the deposited data

How the results depend on the processing

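H19 and IGF2 stayed higher in PC9-GR under every scaling, pseudocount and left-out library tried. The log2 difference of H19 was 3.27, and it was 3.95 with a pseudocount of 0.1 and 3.89 with equal library sums. That of IGF2 was 1.40, and it was 1.95 with a pseudocount of 0.1, 1.96 with equal library sums and 1.18 with median-ratio scaling. Without each library in turn the difference ran from 3.13 to 3.47 for H19 and from 1.27 to 1.51 for IGF2, and the difference in the log2 ratio of H19 to IGF2 ran from 1.87 to 2.20. A filter at 5 FPKM left 629 genes and 627 calls, 234 higher and 393 lower. Fewer genes were tested there, and the share of calls that were higher was 37.3%, against 48.5% with the filter at 1 FPKM. With equal library sums it was 57.5% (1019 calls). That scaling raised PC9-GR values relative to PC9 and moved the median log2 difference by 0.47. The cause of the shift in share with the filter at 5 FPKM was not tested. Of the listed genes in the pathway lists, 6 were called higher and 7 lower, against 584 and 619 of all 1207 tested genes. Without the filter on low values 10 were called higher and 8 lower, against 846 and 810 of all 1705 genes. The deviations of same-numbered libraries had correlations of -0.10, 0.08 and 0.16, and 1 of 3 PC9-GR libraries correlated best with its own number. These values and the labels do not settle whether the numbers pair the samples. With the replicate block 1205 genes were called, against 1203 without it. The table has no counts, and values near or below 1 FPKM, which include both members in PC9, carry an unknown counting error.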
